A study of Rattus norvegicus with 20 samples.

Results

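The 12 mammary cancers of a 20-sample rat series were ordered by their signal for 3 stromal genes, and the 6 highest (stroma-rich) were set against the 6 lowest (stroma-poor). The order came from a score, the mean over Sparc, Dcn and Fbn1 of the log2 processed signal (floored at 1) minus the 75th percentile of the array. Sparc codes for a collagen-binding glycoprotein, Dcn for decorin, a small proteoglycan that sits on collagen fibrils, and Fbn1 for fibrillin, the backbone of microfibrils. Female Sprague-Dawley (Jcl:SD) rats were all exposed at 7 weeks of age to 4 Gy of whole-body gamma rays, then watched for 30 weeks for palpable mammary cancer. Obesity-prone (OP) and obesity-resistant (OR) rats were told apart by body weight on a diet with 45 kcal% fat, and lean control (LC) rats ate a diet with 10 kcal% fat. RNA from 12 adenocarcinomas and 8 normal mammary tissues was hybridised to 1-colour arrays, 1 sample per array. The stroma-rich group held OP cancers 2 and 6, OR cancers 1, 2 and 3 and LC cancer 3, and the stroma-poor group held OP cancers 1, 3, 4 and 5 and LC cancers 1 and 2. The normal tissues were 3 OP, 2 OR and 3 LC samples. No unirradiated sample was analysed here. The submitters chose adenocarcinomas of uniform histology, without necrosis and without many infiltrating cells. Tumours that they judged heavily infiltrated were thus left out. Signal for immune cell genes still differed between the cancers and was highest in OP cancer 6 for neutrophil and macrophage markers (below). The labels do not say that each sample came from a separate animal, so p-values measure only the spread between these samples.

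Tumour stroma is the tissue between the nests of cancer cells: fibroblasts, the collagens, proteoglycans and glycoproteins they secrete, blood vessels, and immune cells. Fibroblasts secrete fibrillar collagen as a precursor that is hydroxylated inside the cell, then trimmed and cross-linked outside it, and proteases such as urokinase and the matrix metalloproteinases cut the finished matrix. In the mammary gland the same matrix surrounds ducts and fat, so normal tissue is rich in it. In bulk samples such as these, fewer cells of a type and less RNA per cell cannot be told apart.

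The score was 4.86, 5.13 and 6.34 (lowest, median and highest) in stroma-rich cancers and 3.78, 4.26 and 4.64 in stroma-poor cancers. OR cancer 3 (4.86) lay just inside the stroma-rich group, and OP cancer 1 (4.64) just outside it. OP cancer 6 stood apart at 6.34, with the next cancer, LC cancer 3, at 5.21. All 8 normal tissues lay between 6.21 and 7.59, so OP cancer 6 was the only cancer within their range. By gene, Fbn1 and Dcn separated the groups, at 3.67 to 4.996 and 3.75 to 5.93 in stroma-rich cancers and 2.48 to 3.51 and 2.56 to 3.68 in stroma-poor cancers. Sparc did not, at 6.26 to 8.11 in stroma-rich cancers and 5.82 to 7.04 in stroma-poor cancers. These values chose the groups and are a description.

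**Figure D1:**
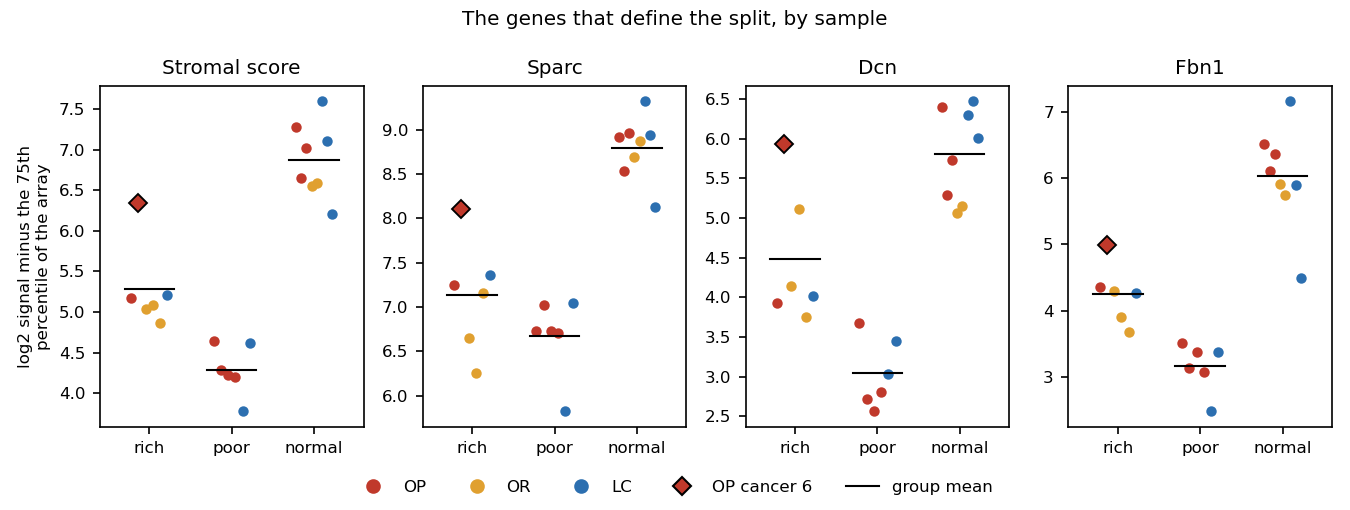
Stromal score and the log2 signal of Sparc, Dcn and Fbn1 relative to the 75th percentile of the array (y axes) in stroma-rich cancers, stroma-poor cancers and normal tissue, with 1 point per sample coloured by obesity group and lines at group means. OP cancer 6 (diamond, score 6.34) lies among the normal tissues, and Sparc overlaps between the 2 groups of cancers.

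The score was also compared between obesity groups, and the difference did not pass. The score averaged 4.81 ± 0.84 in OP cancers and 4.77 ± 0.53 in OR and LC cancers together (SD, n = 6 each), a difference of 0.045 (two-sided exact permutation test over 924 arrangements, p = 0.926, adjusted p = 0.926 over 2 such tests). All 3 OR cancers were stroma-rich, against 2 of 6 OP cancers and 1 of 3 LC cancers. Arrays also differed in the share of probes well above background, which was 71.5% ± 7.45 in stroma-rich cancers and 65.5% ± 4.38 in stroma-poor cancers (SD, n = 6 each; difference 5.94, exact permutation p = 0.110, adjusted p = 0.221). Slide and group were partly tied: slide 4 held 1 stroma-rich and 3 stroma-poor cancers, slide 5 held 3 and 1, slides 2 and 3 held 1 stroma-rich cancer each, and slide 1 held 2 stroma-poor cancers. Scan days were balanced, with 4 stroma-rich and 4 stroma-poor cancers on day 1 and 2 of each on day 2.

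Stroma-rich cancers had more signal for fibronectin (Fn1, 4.37-fold), type III collagen (Col3a1, 3.47-fold) and lumican (Lum, 2.96-fold). Most genes of matrix proteases, proliferation, glycolysis and macrophages also lay higher, and most luminal and contractile genes had small negative differences. Across all genes other than the 3 that made the groups, no gene passed the test. Of 24814 genes, 0 (0%) had an adjusted p under 0.05 (limma, Benjamini-Hochberg; lowest 0.216), while 3226 (13%) had an unadjusted p under 0.05, of which 1514 (6.1%) were higher and 1712 (6.9%) lower in stroma-rich cancers. With the log2 processed signal minus the 75th percentile of the array in place of these values, the balance turned, with 2590 higher and 1275 lower and 0 past the adjusted threshold. Because the groups were cut from 3 genes of the same arrays, such a p says only whether a gene goes with those genes, and tests no treatment. All 6 stroma-rich cancers lay above all 6 stroma-poor cancers for 114 genes (0.459%) and below them for 112 (0.451%). The median difference over all genes was -0.02 (log2, stroma-rich minus stroma-poor), with 44.2% of genes above 0. With the score as a continuous term in place of the split, 252 genes (1.02%) went up with it and 17 (0.0685%) went down at an adjusted p under 0.05 (limma), and without OP cancer 6 that count was 1 (0.00403%), with 2129 (8.58%) at an unadjusted p under 0.05. Leaving out OP cancer 1 in the split gave 35 genes with an adjusted p under 0.05.

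Most matrix genes measured lay higher in stroma-rich cancers. Over 6 lists of collagens, their processing enzymes, proteoglycans, elastic fibre genes, matrix glycoproteins and basement membrane genes, 35 of the 41 members tested had a positive difference, with a median of 0.50 (all genes, -0.02). None passed the adjusted threshold, and 16 had an unadjusted p under 0.05 in the upward direction against 0 downward (background 6.1% and 6.9%). Without OP cancer 6 the median was 0.31, with 34 of 41 positive and 16 upward against 0 downward at an unadjusted p under 0.05 (background 5.96% and 5.28%). Levels below are on the log2 scale after quantile normalization, differences are stroma-rich minus stroma-poor in log2 with their SE, and limma's adjusted p of every gene named lay between 0.216 and 0.997 in the split of the 12 cancers. The groups overlapped for each gene described unless said otherwise.

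Of 15 collagens listed, 4 had a probe that was matched to a symbol, and all 4 were higher in stroma-rich cancers. Their median difference was 1.44 (1.15 without OP cancer 6). Col3a1, which forms thin fibrils with type I collagen, had levels of 14.17, 15.51 and 17.37 (lowest, median and highest) in stroma-rich cancers and 12.98, 13.74 and 15.27 in stroma-poor cancers. Its difference came to 1.79 ± 0.51, 3.47-fold higher in stroma-rich cancers, with OP cancer 6 the highest and LC cancer 2 the highest of the stroma-poor group. Col1a2, a chain of type I collagen, ran between 16.38 and 17.63 with a median of 17.12 in stroma-rich cancers, and between 15.68 and 16.97 with a median of 16.01 in stroma-poor cancers, and had a difference of 0.96 ± 0.25. The groups overlapped for each of these genes. Col5a1 and Col5a3, chains of the type V collagen that sets fibril diameter, stood 1.53 ± 0.43 and 1.35 ± 0.36 higher. In OP cancers alone, with 2 stroma-rich and 4 stroma-poor arrays, the Col5a3 difference was 2.21.

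Enzymes that mature collagen were less even. Pcolce, a secreted protein that speeds removal of the collagen end piece, had levels of 11.72, 12.51 and 14.11 (lowest, median and highest) in stroma-rich cancers and 10.83, 11.05 and 11.91 in stroma-poor cancers, and differed by 1.56 ± 0.40. Loxl1, a lysyl oxidase that cross-links elastin and collagen, had a difference of 1.12 ± 0.35, P4ha1, a prolyl hydroxylase subunit, differed by 0.78 ± 0.28, and Plod2, a lysyl hydroxylase, had a difference of 0.61 ± 0.20. The list counted 8 of 9 members above 0 with a median of 0.39 (0.31 without OP cancer 6), and 4 had an unadjusted p under 0.05, all upward (background 6.1%).

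Among proteoglycans, Lum separated the groups completely. Lum, lumican, a small leucine-rich proteoglycan that binds collagen fibrils as decorin does, ran between 9.84 and 11.86 with a median of 9.93 in stroma-rich cancers, and between 7.76 and 9.62 with a median of 8.71 in stroma-poor cancers. This amounted to 1.57 ± 0.38, 2.96-fold higher, and was 1.26 without OP cancer 6. Bgn, biglycan, the closest relative of decorin, had levels of 15.39, 16.25 and 17.46 (lowest, median and highest) in stroma-rich cancers and 14.63, 14.98 and 15.42 in stroma-poor cancers. The difference was 1.30 ± 0.28, 2.46-fold higher, and the groups touched only where OR cancer 2, the lowest stroma-rich cancer, lay just below the highest stroma-poor one. Aspn, asporin, a further member of that family, differed by 0.62 ± 0.20. Prelp, which anchors basement membrane to connective tissue, had a difference of -0.77 ± 0.37, so the list counted 6 of 7 above 0 with a median of 0.41. That median was 0.26 without OP cancer 6 and 1.11 with the log2 processed signal.

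Fn1, fibronectin, the glycoprotein that cells pull into fibrils before collagen is laid down, had the largest difference of any matrix gene named. It ran between 13.41 and 16.45 with a median of 13.82 in stroma-rich cancers, and between 11.10 and 13.03 with a median of 12.31 in stroma-poor cancers, with no overlap. Its difference came to 2.13 ± 0.52, 4.37-fold higher, and the value was 1.96 without OP cancer 6. The highest level was that of LC cancer 3, not of OP cancer 6. Spp1, osteopontin, a secreted integrin ligand, had levels of 10.48, 11.84 and 12.62 (lowest, median and highest) in stroma-rich cancers and 9.37, 9.67 and 11.77 in stroma-poor cancers, and differed by 1.80 ± 0.43. It was 2.44 on scan day 1 and 0.52 on scan day 2, and it was past the threshold among day 1 cancers alone (limma, adjusted p = 0.0333). Ccn2, a matricellular protein induced by TGF-beta, had a difference of 0.92 ± 0.26, and Ecm1 differed by 0.81 ± 0.23. The list of matrix glycoproteins counted 10 of 11 above 0 with a median of 0.64 (0.56 without OP cancer 6).

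Elastic fibre genes lay on both sides of 0, and the basement membrane genes measured lay near it. Fbn2, the fibrillin of developing tissue, ran between 8.27 and 11.69 with a median of 9.43 in stroma-rich cancers, and between 7.55 and 9.002 with a median of 8.32 in stroma-poor cancers, and had a difference of 1.38 ± 0.51. Mfap4 differed by 0.55 ± 0.36 and Fbln5 had a difference of 0.24 ± 0.12, and the elastic fibre list had 6 of 8 above 0 with a median of 0.26 (0.14 without OP cancer 6). Lamb2, a laminin chain, and Agrn, agrin, both of basement membranes, differed by 0.00 ± 0.24 and -0.08 ± 0.20, with overlapping groups. Only these 2 of the 16 basement membrane genes listed had a probe that was matched to a symbol, so the others could not be looked up.

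**Figure D2:**
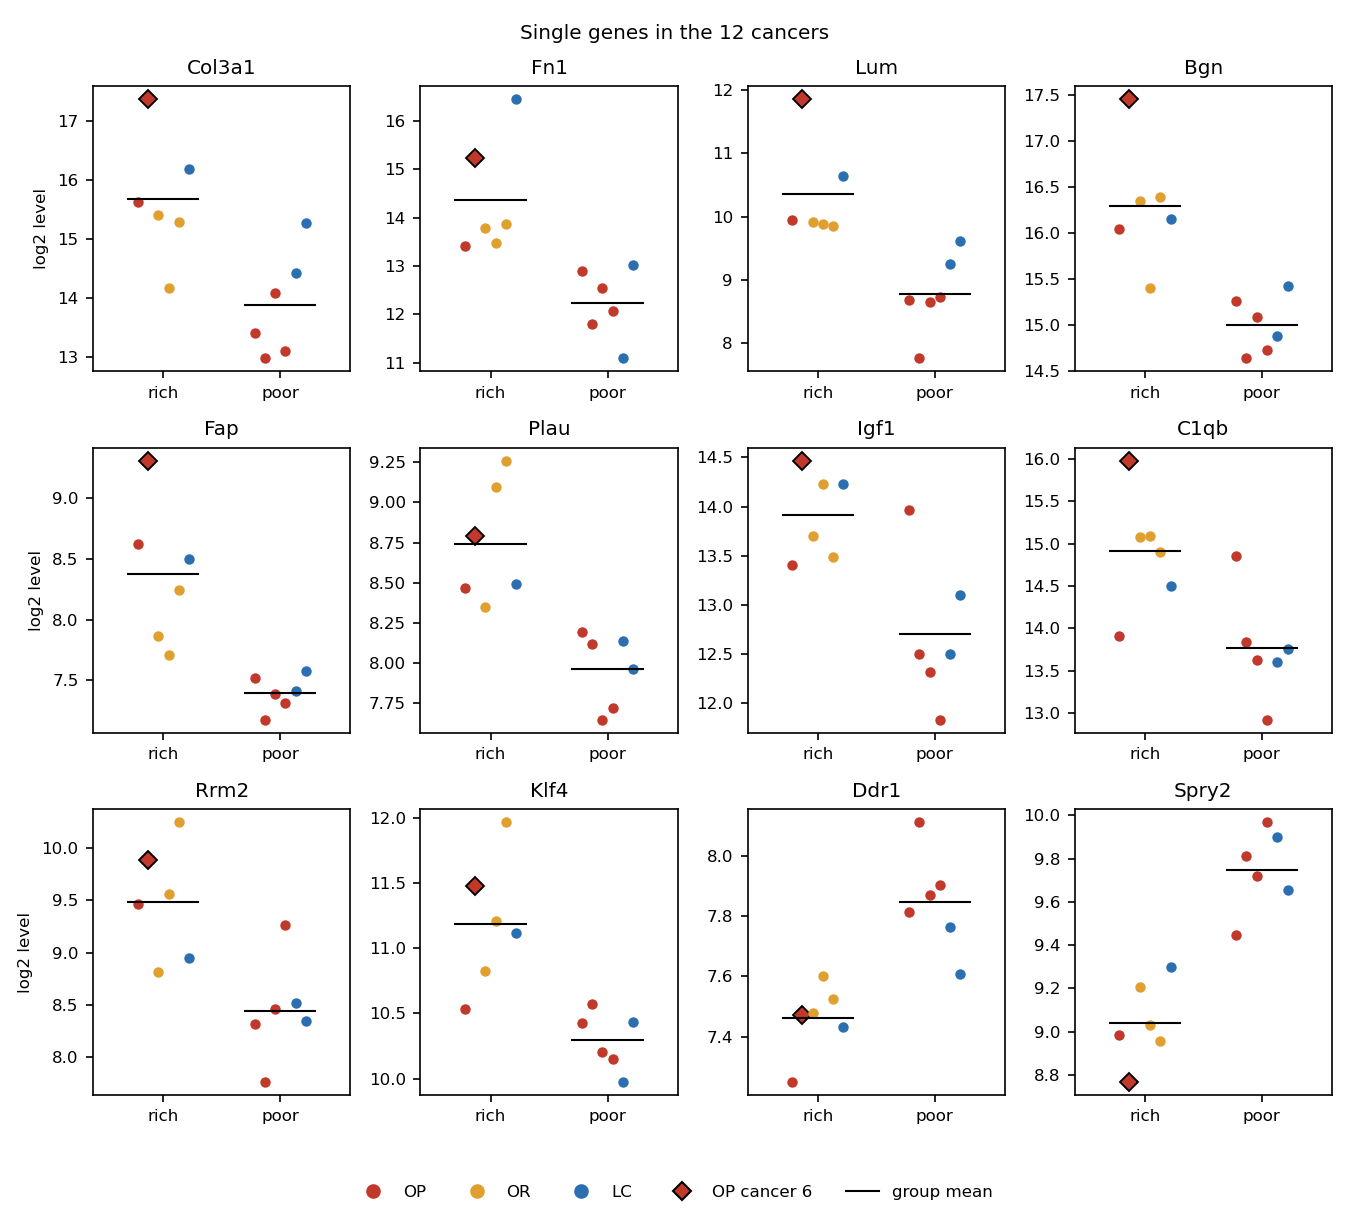
Log2 levels (y axes) of 12 genes in stroma-rich and stroma-poor cancers, 1 point per cancer coloured by obesity group, with lines at group means. Lum, Fn1, Fap and Plau have every stroma-rich cancer above every stroma-poor one, Ddr1 and Spry2 every one below, and OP cancer 6 (diamond) is highest for Col3a1, Lum, Bgn, Fap, Igf1 and C1qb.

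Proteases that cut matrix, and their inhibitors, were higher with the matrix itself. Of 22 members, 18 were above 0 with a median of 0.56 (0.44 without OP cancer 6), and 14 had an unadjusted p under 0.05 upward against 1 downward (background 6.1% and 6.9%). Plau, the urokinase that turns plasminogen into plasmin, had levels of 8.35, 8.64 and 9.26 (lowest, median and highest) in stroma-rich cancers and 7.65, 8.04 and 8.19 in stroma-poor cancers, with no overlap. This amounted to 0.78 ± 0.17, 1.72-fold higher, and OP cancer 6 was in the middle of its group. Fap, fibroblast activation protein, a serine protease on the surface of tumour fibroblasts, ran between 7.71 and 9.31 with a median of 8.37 in stroma-rich cancers, and between 7.18 and 7.58 with a median of 7.40 in stroma-poor cancers, again with no overlap. The difference was 0.98 ± 0.22, 1.97-fold higher, and it was 0.79 without OP cancer 6. Mmp23, a membrane metalloproteinase, differed by 1.36 ± 0.36.

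Receptors for matrix lay on both sides of 0. Of 11 integrins, discoidin receptors and syndecans tested, 5 were above 0, with a median of -0.20. Ddr1, a collagen receptor of epithelial cells, had levels of 7.25, 7.48 and 7.602 (lowest, median and highest) in stroma-rich cancers and 7.61, 7.84 and 8.11 in stroma-poor cancers, and had a difference of -0.38 ± 0.09, with every stroma-rich cancer below every stroma-poor one. Itgb6, an epithelial integrin chain that releases active TGF-beta, differed by -0.55 ± 0.16. Cd44, the hyaluronan receptor, had a difference of 0.93 ± 0.25, and Itga1, a chain of a collagen-binding integrin of mesenchymal cells, differed by 0.63 ± 0.17.

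Fibroblast markers were higher, with exceptions. Of 14 tested, 10 were above 0 and 4 below, with a median of 0.46 (0.28 without OP cancer 6). The lowest difference was -0.79, and 5 had an unadjusted p under 0.05 upward against 1 downward (background 6.1% and 6.9%). The list members described next, Vim, Pdgfrb, S100a4 and C3, were all among the higher ones. Vim, vimentin, the intermediate filament of mesenchymal cells, ran between 13.59 and 15.03 with a median of 14.17 in stroma-rich cancers, and between 12.55 and 13.65 with a median of 13.26 in stroma-poor cancers, and had a difference of 1.06 ± 0.28. Pdgfrb, the PDGF receptor of fibroblasts and pericytes, had levels of 10.31, 11.16 and 11.85 (lowest, median and highest) in stroma-rich cancers and 9.58, 10.28 and 10.73 in stroma-poor cancers, and differed by 0.83 ± 0.27. S100a4 had a difference of 1.31 ± 0.51 and C3, the central complement component, differed by 2.08 ± 0.78. The C3 difference was 3.15 on scan day 1 and -0.05 on day 2. Snai1, a transcription factor of mesenchymal cells, ran between 9.62 and 11.08 with a median of 10.08 in stroma-rich cancers, and between 9.21 and 9.57 with a median of 9.38 in stroma-poor cancers, with no overlap. Its difference came to 0.92 ± 0.24, 1.89-fold higher, whereas Snai2, its relative, differed by -0.06 ± 0.08.

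Signals that act on stroma split by gene. Igf1, a growth factor that mammary stroma makes for epithelium, had levels of 13.40, 13.96 and 14.47 (lowest, median and highest) in stroma-rich cancers and 11.83, 12.50 and 13.96 in stroma-poor cancers, and had a difference of 1.22 ± 0.32. Its receptor gene, Igf1r, differed by -0.48 ± 0.23. Sfrp4, a secreted Wnt antagonist, had a difference of 1.31 ± 0.45, and Dkk3, another secreted member of a Wnt antagonist family, differed by -0.48 ± 0.17. Over 17 growth factors and Wnt antagonists, 8 were above 0, with a median of -0.06, which is near the -0.02 of all genes. In the TGF-beta and BMP list 8 of 19 were above 0, with a median of -0.05. Tgfbr3, betaglycan, a co-receptor that presents TGF-beta, ran between 7.41 and 7.62 with a median of 7.47 in stroma-rich cancers, and between 7.73 and 8.14 with a median of 7.84 in stroma-poor cancers, and had a difference of -0.39 ± 0.08, with no overlap. Bambi, a decoy receptor of this pathway, differed by -0.96 ± 0.23, and Acvrl1, an endothelial receptor of it, had a difference of 0.70 ± 0.22.

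Proliferation genes were higher in stroma-rich cancers, all 14 of 14 tested, with a median of 0.55 (0.53 without OP cancer 6). Of these, 10 had an unadjusted p under 0.05 (background 6.1% upward). Rrm2, the subunit of ribonucleotide reductase that is made in S phase, had levels of 8.81, 9.51 and 10.24 (lowest, median and highest) in stroma-rich cancers and 7.77, 8.40 and 9.26 in stroma-poor cancers. This amounted to 1.04 ± 0.27, 2.05-fold higher. Plk1, a mitotic kinase, ran between 11.82 and 13.13 with a median of 12.40 in stroma-rich cancers, and between 10.74 and 12.34 with a median of 11.44 in stroma-poor cancers, and differed by 0.94 ± 0.30. Birc5, survivin, had a difference of 0.68 ± 0.24, and Aurkb, a kinase of the chromosomal passenger complex, differed by 0.46 ± 0.16. The groups overlapped for each of them. The mean level of the list was 9.75 to 10.702 in stroma-rich cancers and 9.09 to 10.15 in stroma-poor cancers, against 7.69 to 9.52 in normal tissue. The stromal scores of normal tissue were above those of 11 of the 12 cancers.

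Genes of the cell cycle share short promoter motifs, and those of the cancers' proliferation list are shown because all their members lay on the same side. CCAAT, bound by NF-Y, was searched on both strands (CCAAT or ATTGG) in the 250 bases before each start in RefSeq's promoters of the GRCr8 assembly. It was found in 9 of the 11 proliferation genes that had a promoter there, and in 34% of all 33469 promoters. Here and for the motif below, a list counted a single promoter per gene tested. The share over all promoters was not cut down in that way. The promoters below give the 150 bases before the start, 5′ to 3′ along the gene, with each motif in capitals, and the 4 genes were chosen for their motifs after their values were seen.
Plk1: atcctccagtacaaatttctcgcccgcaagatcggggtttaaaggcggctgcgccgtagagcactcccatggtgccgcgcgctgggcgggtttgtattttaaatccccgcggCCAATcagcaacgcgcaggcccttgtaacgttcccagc
Ccnb1: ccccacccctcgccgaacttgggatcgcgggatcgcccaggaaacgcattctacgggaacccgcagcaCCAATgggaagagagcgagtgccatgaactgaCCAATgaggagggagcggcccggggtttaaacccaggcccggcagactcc
Ccnb2: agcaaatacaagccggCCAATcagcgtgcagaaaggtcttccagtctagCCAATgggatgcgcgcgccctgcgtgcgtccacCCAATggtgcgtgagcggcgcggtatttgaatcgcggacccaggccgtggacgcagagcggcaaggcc
Cdc20: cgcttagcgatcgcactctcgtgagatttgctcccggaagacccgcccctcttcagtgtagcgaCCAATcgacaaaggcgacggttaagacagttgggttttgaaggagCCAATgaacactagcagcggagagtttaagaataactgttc
They lie at chr1:186147508-186147657 (plus strand), chr2:33655226-33655375 (minus strand), chr8:79981659-79981808 (minus strand) and chr5:137255800-137255949 (minus strand). Plk1 holds 1 copy, Ccnb1 and Cdc20 hold 2 each, and Ccnb2 holds 3. Ccnb1 and Ccnb2, the mitotic cyclins, stood 0.84 ± 0.30 and 0.60 ± 0.24 higher in stroma-rich cancers, and Cdc20, an activator of the anaphase-promoting complex, 0.67 ± 0.31 higher.

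The AP-1 motif TGAGTCA, searched on both strands (TGAGTCA or TGACTCA), was in 5 of the 15 promoters found for the 22 proteases and inhibitors, and in 4.05% of all promoters. It is printed for Plaur, the urokinase receptor, and Mmp12, macrophage elastase, both chosen after their values were seen.
Plaur: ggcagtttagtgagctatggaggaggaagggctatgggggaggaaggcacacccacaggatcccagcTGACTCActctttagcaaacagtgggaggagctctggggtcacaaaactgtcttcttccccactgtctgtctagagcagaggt
Mmp12: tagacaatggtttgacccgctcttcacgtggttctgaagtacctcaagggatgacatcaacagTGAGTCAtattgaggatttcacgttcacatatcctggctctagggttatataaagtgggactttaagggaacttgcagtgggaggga
They lie at chr1:89181213-89181362 (plus strand) and chr8:12866502-12866651 (plus strand). Plaur had levels of 8.01, 8.22 and 9.13 (lowest, median and highest) in stroma-rich cancers and 7.58, 7.75 and 8.05 in stroma-poor cancers, and had a difference of 0.56 ± 0.17. Mmp12 differed by 0.93 ± 0.34. A match describes the letters of the promoter and shows no binding. Further motifs were looked at, and these were picked after that.

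Hypoxia and glycolysis genes were also higher throughout, in 14 of 14 tested, with a median of 0.49 (0.50 without OP cancer 6), and 7 had an unadjusted p under 0.05 (background 6.1% upward). The median was 0.28 without OP cancer 1 and 0.70 without LC cancer 1. Adm, adrenomedullin, a vasodilator peptide induced by low oxygen, ran between 9.79 and 12.18 with a median of 11.26 in stroma-rich cancers, and between 8.74 and 10.92 with a median of 9.55 in stroma-poor cancers. The difference was 1.46 ± 0.44, 2.76-fold higher. Slc2a1, the main glucose transporter of tumour cells, had a difference of 0.79 ± 0.29, Pgk1, a glycolytic enzyme, differed by 0.71 ± 0.25, and Bnip3, a mitochondrial target of hypoxia-inducible factor, had a difference of 0.63 ± 0.23. The list's mean level overlapped between groups, at 11.70 to 12.62 in stroma-rich cancers and 11.08 to 12.31 in stroma-poor cancers. For normal tissue the range was 11.00 to 11.38.

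Macrophage markers accompanied the matrix in most stroma-rich cancers. Of 13 tested, 12 were above 0, with a median of 0.91 (0.60 without OP cancer 6), and 8 had an unadjusted p under 0.05 (background 6.1% upward). C1qb, a chain of the complement starter C1q that tissue macrophages make, had levels of 13.91, 14.99 and 15.98 (lowest, median and highest) in stroma-rich cancers and 12.92, 13.69 and 14.86 in stroma-poor cancers, and differed by 1.14 ± 0.34. OP cancer 2 was the lowest stroma-rich cancer and OP cancer 1 the highest stroma-poor one. Lyz2, lysozyme of myeloid cells, had a difference of 1.62 ± 0.51, Fcgr2b, an inhibitory receptor for antibody, differed by 1.51 ± 0.47, and C1qc had a difference of 0.96 ± 0.34. All 9 MHC class II genes tested were above 0, with a median of 0.80 (0.50 without OP cancer 6). The macrophage and MHC class II medians were 1.42 and 1.25 among scan day 1 cancers and 0.20 and -0.31 among day 2 cancers. T and NK cell markers were above 0 for 13 of 16, with a median of 0.35 (0.13 without OP cancer 6), but Gzma, a granule protease of killer cells, differed by -1.73 ± 0.59. The T and NK cell median was 0.54 among day 1 cancers and -0.10 among day 2 cancers.

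OP cancer 6 carried markers of further cell types at levels no other cancer reached. Of 6 neutrophil markers listed, only S100a8 and S100a9 had a probe that was matched to a symbol. The mean of OP cancer 6 over these 2 was 14.21. The other stroma-rich cancers had 6.84 to 9.36 and stroma-poor cancers 6.73 to 7.45. Over 9 skeletal muscle genes OP cancer 6 had a mean of 10.93 and OP cancer 2 one of 9.41. The other stroma-rich cancers had 7.55 to 8.07, against 7.49 to 7.68 in stroma-poor cancers. Of the muscle genes, 8 of 9 were above 0 with a median of 1.14 (0.54 without OP cancer 6). Myh4, a fast myosin with no overlap between the groups, was well above background on 6 of 6 stroma-rich and 1 of 6 stroma-poor arrays. As a probe had to be well above background in 6 or more of the 12 cancers, Myh4 passed that filter through the stroma-rich arrays. Its lack of overlap is therefore a description and no support. The macrophage mean of OP cancer 6 was 13.40, with 11.18 to 12.40 in the other stroma-rich cancers. Whether muscle or neutrophil RNA had a part in the other differences was not tested.

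**Figure D3:**
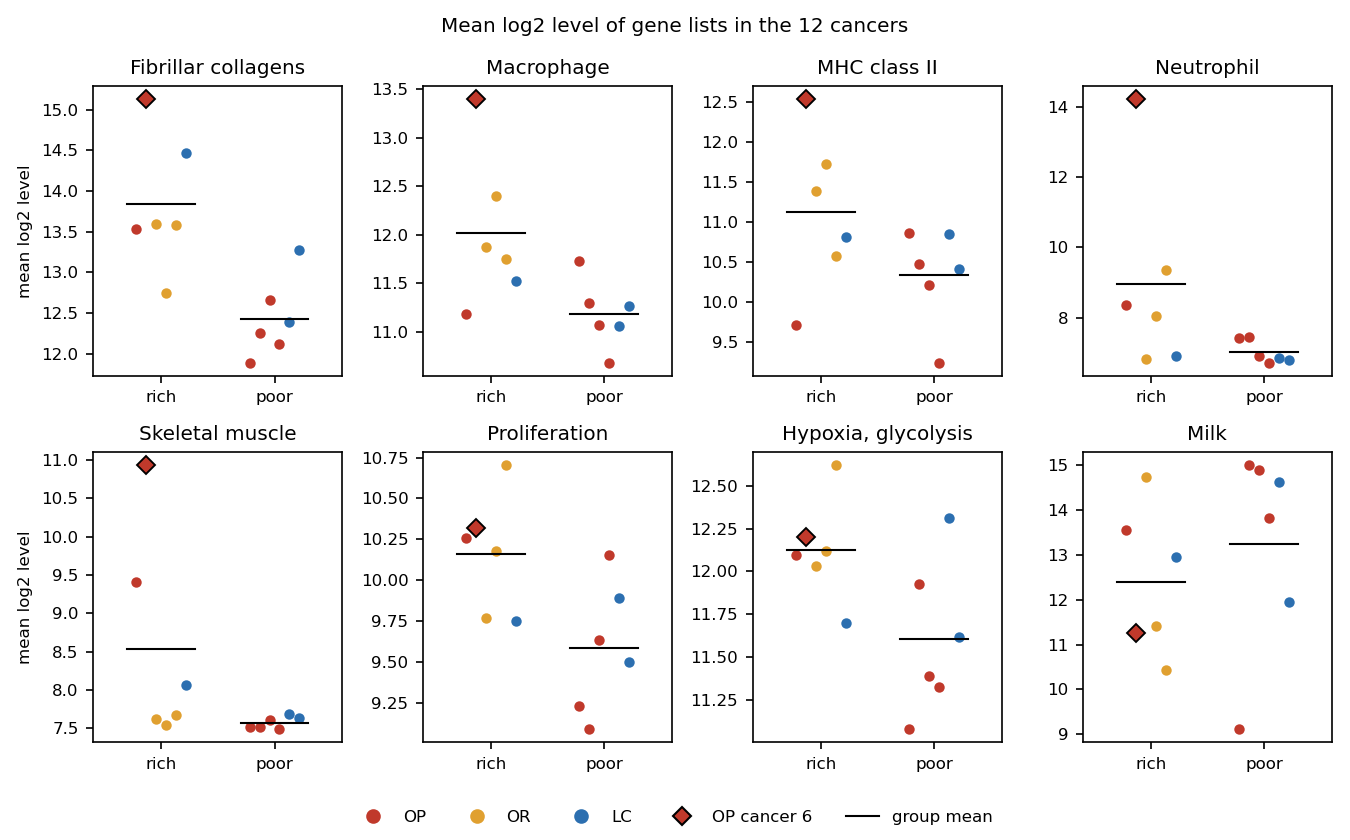
Mean log2 level (y axes) over the members of 8 gene lists in stroma-rich and stroma-poor cancers, 1 point per cancer coloured by obesity group, with lines at group means. OP cancer 6 (diamond) is far above the rest for neutrophil (14.21) and skeletal muscle genes (10.93) and lies within its group for proliferation and glycolysis genes.

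Epithelial markers showed small differences in either direction. Krt8, a luminal keratin, ran between 13.20 and 14.06 with a median of 13.53 in stroma-rich cancers, and between 12.59 and 13.83 with a median of 13.18 in stroma-poor cancers, and had a difference of 0.40 ± 0.22. Epcam and Cdh1, adhesion proteins of epithelium, differed by 0.04 ± 0.22 and 0.13 ± 0.15. Over 18 luminal markers 5 were above 0, with a median of -0.19 (-0.06 without OP cancer 6). Esr1, the oestrogen receptor, differed by -0.29 ± 0.10. All 12 cancers carried Krt8 and Epcam well above background. Of the basal markers Krt5, Krt14, Krt17 and Tp63, 1 of 4 was above 0, with a median of -0.13 (-0.21 without OP cancer 6, -0.37 without OR cancer 3 and 0.02 without OP cancer 2).

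Contractile genes had negative differences over all 12 cancers, but not on scan day 2. Cnn1, calponin of smooth muscle and myoepithelium, had levels of 8.26, 8.89 and 9.18 (lowest, median and highest) in stroma-rich cancers and 8.66, 9.82 and 10.45 in stroma-poor cancers, and had a difference of -0.94 ± 0.27. That difference was -1.42 among scan day 1 cancers and 0.01 among day 2 cancers. Tagln, transgelin, differed by -0.57 ± 0.32, Oxtr, the oxytocin receptor of myoepithelium, had a difference of -0.37 ± 0.14, and 1 of 6 members was above 0 with a median of -0.34 (-0.40 without OP cancer 6). The list's median was -0.65 on scan day 1 and 0.06 on day 2. Milk genes were below 0 for 8 of 8, with a median of -0.81, but the median was -2.41 on scan day 1 and 2.94 on day 2. Csn2, beta-casein, ranged over 8.07 to 17.08 in stroma-rich cancers and 8.20 to 17.04 in stroma-poor cancers, so its spread within each group exceeded the difference of -1.16 ± 2.09.

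Vessel markers had small differences. Over 11 endothelial genes 7 were above 0, with a median of 0.19 (0.04 without OP cancer 6), and Pecam1, an adhesion protein of endothelium, differed by -0.08 ± 0.14. Pericyte markers went both ways, with 5 of 7 above 0 and a median of 0.38 (0.37 without OP cancer 6, 0.15 without OP cancer 2). Anpep, an aminopeptidase, and Rgs5, a regulator of G-protein signalling, differed by 0.69 ± 0.40 and 0.54 ± 0.28, while Mcam differed by -0.66. Adipocyte markers were above 0 for 11 of 15, with a median of 0.17 (0.20 without OP cancer 6). Of these 15, 6 had an unadjusted p under 0.05 upward against 0 downward (limma, background 6.1% and 6.9%). Cfd, adipsin, had a difference of 1.16 ± 0.36, but Adipoq, adiponectin, stayed at 6.90 to 7.44 in stroma-rich cancers and 6.72 to 7.17 in stroma-poor cancers, against a mean of 15.23 in normal tissue. Interferon-induced genes were below 0 for 15 of 19, with a median of -0.24 (-0.25 without OP cancer 6, -0.06 without LC cancer 1), and Irf7, a transcription factor of that response, differed by -1.61 ± 0.62.

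The remaining lists were small or even. Mast cell markers were above 0 for 7 of 8, with a median of 0.60 with or without OP cancer 6. It was 0.30 without OR cancer 2 and 1.15 without OP cancer 1, and 1.60 on scan day 1 and -1.43 on day 2. Immediate early genes were above 0 for 5 of 14, with a median of -0.02, although Klf4, a zinc-finger transcription factor, ran between 10.53 and 11.97 with a median of 11.16 in stroma-rich cancers, and between 9.98 and 10.57 with a median of 10.32 in stroma-poor cancers, and had a difference of 0.89 ± 0.21. Mesenchymal transition factors, Snai1 among them, were above 0 for 3 of 4 with a median of 0.63. Nerve and Schwann cell markers were above 0 for 4 of 10 with a median of -0.08, and skin keratinocyte markers for 3 of 3 with a median of 0.54. The keratinocyte median was 0.19 without OR cancer 3, whose mean level was 11.80, with the next stroma-rich cancer at 9.83. Of the B and plasma cell markers, Mzb1 alone was tested and differed by 0.66 ± 0.50 (0.15 without OP cancer 6). Its level was 9.98 in OP cancer 6 and 6.48 to 7.80 in the other stroma-rich cancers.

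**Figure D4:**
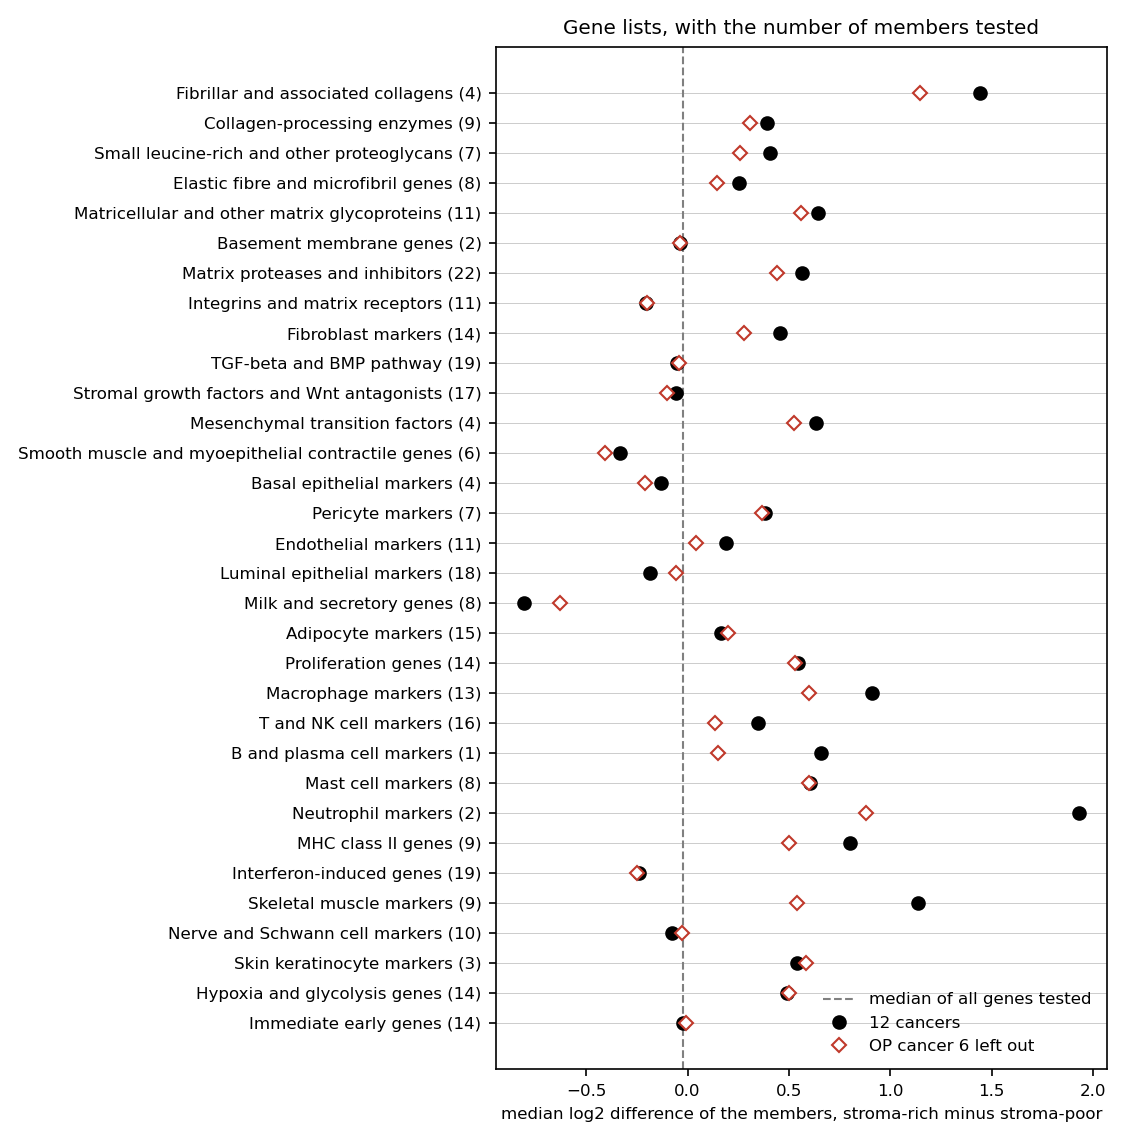
Median log2 difference, stroma-rich minus stroma-poor cancers (x axis), over the members tested of 32 gene lists (y axis, number of members in brackets), for all 12 cancers (filled circles) and with OP cancer 6 left out (open diamonds). The dashed line is the median of all genes (-0.02); proliferation and glycolysis lists hardly shift without OP cancer 6, while neutrophil, muscle and macrophage lists do.

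Outside the lists, the 5 named genes with the smallest p in each direction showed little overlap. Ccdc80, a secreted matrix-bound protein, had levels of 10.36, 11.08 and 11.66 (lowest, median and highest) in stroma-rich cancers and 9.04, 9.64 and 10.04 in stroma-poor cancers, and had a difference of 1.42 ± 0.22 (1.29 without OP cancer 6). Aspg, an asparaginase, differed by 1.74 ± 0.32, and C6, a late complement component, had a difference of 1.02 ± 0.20. Nrp1, a co-receptor for semaphorins and VEGF, and Robo1, a receptor for Slit proteins, stood 0.46 ± 0.09 and 0.30 ± 0.06 higher. In the downward direction Spry2, an inhibitor of receptor tyrosine kinase signalling, ran between 8.77 and 9.30 with a median of 9.01 in stroma-rich cancers, and between 9.45 and 9.97 with a median of 9.76 in stroma-poor cancers, and differed by -0.71 ± 0.11. Notch4, a Notch receptor, had a difference of -1.49 ± 0.26, and Ggt1, which breaks down glutathione, differed by -1.17 ± 0.22. Nepro and Thtpa, a thiamine triphosphatase, differed by -0.47 ± 0.09 and -0.39 ± 0.07. The groups did not overlap for 8 of these 10 genes, the exceptions being Notch4 and Ggt1, but the genes were picked by their p.

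Treating the score as a gradient brought 28 of the 135 named genes past the threshold, 25 upward and 3 downward. Apart from a fixed set of cell type genes, the 135 were picked by their p in the split. The split is a cut of this same score, so the count of 28 is a description and no support. The slope of Mmp23 was 1.34 ± 0.16 log2 per unit of score (limma, adjusted p = 0.00358), that of Loxl1 1.19 ± 0.16 (adjusted p = 0.00537) and that of Bgn 1.14 ± 0.16 (adjusted p = 0.00642). Of the matrix lists 6 of 41 members passed, all upward, as did 8 of 13 macrophage markers and 0 of 14 proliferation genes (background 1.02% upward and 0.0685% downward). Without OP cancer 6 none of the 28 passed, although the Mmp23 slope was then 1.40. With obesity group as a term in the split, 13 genes passed, all upward, among them Fap, Snai1 and Tnni2, a fast skeletal muscle troponin. All 3 OR cancers were stroma-rich and so added nothing to that contrast. It set 2 stroma-rich OP cancers, OP cancer 6 among them, and 1 LC cancer against 4 OP and 2 LC cancers. The fit with this term was not repeated without OP cancer 6. In the split without the term, the Tnni2 difference was 1.54, and 1.13 without OP cancer 6. For Tnni2 the groups did not overlap, with a lowest stroma-rich level of 9.07 and a highest stroma-poor level of 9.01.

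The normal tissues, which the split did not use, gave the same relation a separate look. Over 8 normal tissues 0 of 24757 genes (0%) went with the score at an adjusted p under 0.05 (limma), and 868 (3.51%) upward and 785 (3.17%) downward had an unadjusted p under 0.05. Matrix genes had positive slopes for 34 of 41, with a median of 0.65 log2 per unit of score (all genes, -0.02). Fibroblast markers did for 12 of 14, with a median of 0.62. Proliferation genes had 5 of 14 positive with a median of -0.08, hypoxia and glycolysis genes 6 of 14 with -0.02, and macrophage markers 8 of 13 with 0.23. Whether these slopes differ from those among cancers was not tested.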

How the data were processed

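Labelled RNA of 12 cancers and 8 normal tissues was hybridised to 1-colour Agilent rat arrays. Per the file headers, the deposited scanner files hold spot and background intensity, with quality flags as other values of 0 or 1. The headers name Feature Extraction 9.5.1.1, and the submitters' processing notes name 10.7.3.1. The processed signal is an intensity corrected for background by the authors' scanner software. The authors also deposited a table of log2 values. Comparison with the scanner files showed log2 processed signals scaled to the 75th percentile of each array, with the median of a probe across all 20 arrays subtracted (20793 of 20824 entries matched a probe). RMA and GeneSpring GX are named in the design text, but no quantile step was visible in that table.

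Mean spot signals were not used here, so median spot signals were corrected by normexp (offset 50) and quantile-normalized over 20 arrays in R 4.3.3 with limma 3.58.1. Spots with outlier marks were left out, and no spot was saturated. Probes had to be well above background in 6 or more of the 12 cancers (28045 of 41012), and the brightest probe of a gene was used, which gave 24814 genes. A probe without a symbol stands for a gene: 10835 of 16321 RefSeq accessions on probes matched RefSeq's gene table (GRCr8 assembly), and 6640 tested genes had a symbol. Signal over background and the number of arrays limit the precision, and at the median SE the 95% interval of a difference reached 0.258 to either side. The 12 cancers alone entered the fits (10 residual degrees of freedom), with eBayes and Benjamini-Hochberg adjustment over all genes at 0.05. The code was tested on simulated data.

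The members and the 32 gene lists were chosen with earlier results of these data known. Named genes were the 5 with a symbol and the smallest p in each direction (none had passed), up to 4 members of each list with the smallest p, and a fixed set of cell type genes, 135 in all, of which some are not reported here. Motifs were counted in RefSeq promoters. The alternatives were other scalings, filters, blocks, terms and forms of the score, and leaving out samples. Alternatives by scan day, and the continuous score without OP cancer 6, were chosen after seeing the data.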

Additional observations from a re-analysis of the deposited data

Results flagged for a closer look

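Of 69 groups of values checked for a cancer far from the others of its group, 4 held one. Chance alone gives about 1 in 20 such groups, and 4 of 69 is near that share. That rate does not hold for the stromal score, because the score itself cut the groups. In the stroma-rich group, the stromal score of OP cancer 6 was 6.34, with the next cancer at 5.21. The same cancer's mean over the neutrophil markers was 14.21, with the next at 9.36. OP cancer 2 had the lowest mean over the basement membrane genes, 11.68, with the next at 12.45. OR cancer 3 had the highest mean over the skin keratinocyte markers, 11.80, with the next at 9.83.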

How the results depend on the processing

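The count of genes past the adjusted threshold, 0 in the split, was also 0 with the log2 processed signal, quantile normalization over cancers alone, the value table, either filter, slide or scan day as a block, the replicate block, and scan day 2 alone. It was 13 with obesity group as a term, 269 with the continuous score (1 without OP cancer 6), 7 without the cancers nearest the cut, 15 among OP cancers alone, 10 with the share of probes well above background as a covariate, and 32 on scan day 1 alone. Leaving out each cancer in turn gave 0 to 35, the highest without OP cancer 1. The cause was not tested. The unadjusted count of 3226 was 1427 with the replicate block, 2129 with the continuous score without OP cancer 6, 4951 on scan day 1, 290 on scan day 2 and 2421 to 3972 leaving out each cancer. Same-numbered cancers of different groups correlated at -0.37 to 0.22 in their deviations, so the pairing by number is only a shared number, and the replicate block changed no call. Lists with a positive median numbered 21 of 32, and 21 to 25 leaving out each cancer. The score difference by obesity group, 0.045, was -0.040 on the quantile scale and -0.261 to 0.168 leaving out each cancer. The difference in probes above background ranged over 4.36 to 7.86 (exact permutation p = 0.0411 without OP cancer 6). Leaving samples out aside, 101 of 135 named genes never changed sign under any alternative, and the 75 sign changes involved no value past the threshold. In normal tissue the count of 0 held with the processed signal, slide as a block and each tissue left out. Genes not well above background in at least 6 cancers were left out of the main fit. They entered only the alternative without a filter on dim probes.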
